A study of Homo sapiens with 17 samples.

Results

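The genes described here encode the eIF4F cap-binding complex, its helicase cofactors and the 4E-binding proteins that hold its cap-binding subunit in check. The genes were taken by name: EIF4E, EIF4G1, EIF4G2, EIF4G3, EIF4A1, EIF4A2, EIF4B, EIF4H, EIF4EBP1 and EIF4EBP2, which made 10 genes of the 15660 with a count at 36 h and the 17023 with a count at 72 h. Each gene was represented by the transcript with the most counts at that time point, and all 10 genes passed the minimum of a mean of 20 counts in each library type, along with 9016 genes at 36 h and 10896 at 72 h. The libraries came from HEK293, a human embryonic kidney cell line, nucleofected with ribonucleoproteins of purified Cas9 or dCas9 and a guide RNA against an intron of JAK2. Both arms thus carried protein, guide and electroporation, and differed in whether the nuclease could cut, since dCas9 binds DNA without cutting it. The labels give 300 pmol of protein and of guide for each library, where the methods also describe a smaller scale. In the methods the guide was synthetic at 36 h and transcribed in vitro at 72 h.

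Ribosome-protected footprints and ribosomal RNA-depleted mRNA were sequenced in 17 libraries. At 36 h there were 2 Cas9 and 2 dCas9 footprint libraries with 3 Cas9 and 2 dCas9 mRNA libraries, and at 72 h each arm had 2 libraries of each kind. Footprint libraries held about 689636 to 4868580 counts at 36 h and 3183560 to 8864460 at 72 h, against about 25095500 to 33351000 and 33040300 to 42825700 in the mRNA libraries. The shallowest was dCas9 footprint replicate e at 36 h, and the differences between arms in 36 h footprints are given with and without it. VIM, KRT18, NEFL and NEFM, which HEK293 cells express, were counted in every library, while PAX2 stayed at or below 2.14 CPM. Of 5 markers of other cell types, PTPRC and ALB were at 0 in all 8 footprint libraries, and the summed level of all 5 was between 1.02 and 5.76 CPM in any library. In the study's methods a biological replicate was a plate that received several pooled electroporations. The study also split its lysates between profiling and mRNA sequencing. The labels do not say from which plate each library came, so the tests measure the spread between these libraries.

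Cap-dependent translation begins when eIF4E binds the 5′ cap of an mRNA and eIF4G bridges it to eIF4A, a DEAD-box helicase that unwinds the leader so that the small ribosomal subunit can scan. eIF4B and eIF4H stimulate the helicase. The 4E-BPs compete with eIF4G for the same surface of eIF4E, and phosphorylation by mTOR complex 1 releases them, so that much of the control of this pathway acts on protein and is not read by RNA or footprint counts. mRNAs that begin with a C followed by a tract of pyrimidines, the 5′ terminal oligopyrimidine or TOP mRNAs, respond strongly to this control and include those of ribosomal proteins and of several translation factors.

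The transcript starts of 4 genes are shown to compare EIF4B and EIF4A2, which opened with a pyrimidine tract, with EIF4A1, the paralog of EIF4A2, and with EIF4G2, which lacked such a tract and whose footprints were also low relative to its mRNA. Each line gives 15 bases before the annotated RefSeq start (GRCh38.p14) and 15 from it, on the strand of the gene, and capitals mark the unbroken run of C and T that opens with a C at the start itself.
EIF4B (chr12:53006441-53006470, plus strand): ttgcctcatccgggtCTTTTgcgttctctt
EIF4A2 (chr3:186783562-186783591, plus strand): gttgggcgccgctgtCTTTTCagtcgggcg
EIF4A1 (chr17:7572810-7572839, plus strand): aggcgggcactccgcCCTagtttctaagga
EIF4G2 (chr11:10808912-10808941, minus strand, the upstream of its annotated starts): cagacacgccttagcgccagcagtgagtcg
The run was 5 bases long at EIF4B and 6 at EIF4A2, 3 at EIF4A1, and absent at the start of EIF4G2, which opens with a G. Among the 13 annotated starts read for 9 of the genes, only those of EIF4B and EIF4A2 opened with a C followed by 4 or more pyrimidines, a pattern found, on the sense strand, at 4.07% of all 35116 starts in the same table. Tested genes with such a start had a median log2 footprint-to-mRNA difference in dCas9 cells of -0.092 at 36 h (584 genes) and -0.13 at 72 h (681 genes), and those without had -0.020 (6817 genes) and -0.070 (8203 genes). These letters describe annotated starts, and where transcription began in these cells was not measured.

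Per length, EIF4A1 was far above every other gene of the complex. Its footprint level, in CPM (counts scaled to a common library total after TMM normalization) per kb of counted codons, at 36 h was 2485 and 2600 in the Cas9 libraries (replicates a and c) and 2578 and 2893 in the dCas9 libraries (replicates d and e). The same quantity at 72 h was 2010 and 2211 in Cas9 replicates e and f and 2090 and 2122 in dCas9 replicates e and f. These 8 libraries put it between percentiles 98.9 and 99.0 of the tested genes in each group mean. EIF4H was next in footprints at 447 ± 80.7 CPM per kb (SD, n = 4) at 36 h and 504 ± 57.6 (n = 4) at 72 h, followed by the scaffold EIF4G1 at 278 ± 9.66 and 263 ± 5.60. Of the 9 neighbouring pairs in the footprint order, EIF4A1 and EIF4H, and EIF4H and EIF4G1, had ranges that did not overlap at either time.

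The other members lay close together in footprints. At 36 h EIF4EBP1, which encodes 4E-BP1, averaged 222 ± 46.2 footprint CPM per kb and overlapped in range with EIF4G1 above it and with EIF4B, at 200 ± 35.9, below it. EIF4G2, EIF4A2 and EIF4E averaged 136 ± 24.2, 119 ± 20.9 and 116 ± 22.2, and each overlapped its neighbour. EIF4EBP2 at 50.8 ± 32.0 and EIF4G3 at 39.5 ± 3.81 were the lowest. At 72 h the order of means changed only in the middle, where EIF4E, at 143 ± 6.83, stood above EIF4EBP1, at 124 ± 17.1, and their ranges did not overlap. Differences between time points in such levels cannot be told apart from the separate processing of each time point.

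In mRNA the order was another one. EIF4A1 was first again, at 2164 ± 131 CPM per kb (SD, n = 5) at 36 h and 1940 ± 72.7 (n = 4) at 72 h. EIF4B was second at both times, at 481 ± 23.7 and 564 ± 32.4, above EIF4H at 404 ± 16.0 and 427 ± 9.05. EIF4G2, also called DAP5, a relative of eIF4G that lacks the eIF4E-binding part, came next at 385 ± 5.95 and 394 ± 22.1, with a range that overlapped that of EIF4H at 72 h, and lay above EIF4G1 at 317 ± 17.2 and 238 ± 26.8. EIF4B and EIF4G2 thus stood 2nd and 4th in mRNA but no higher than 4th and 6th in footprints at either time.

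**Figure D1:**
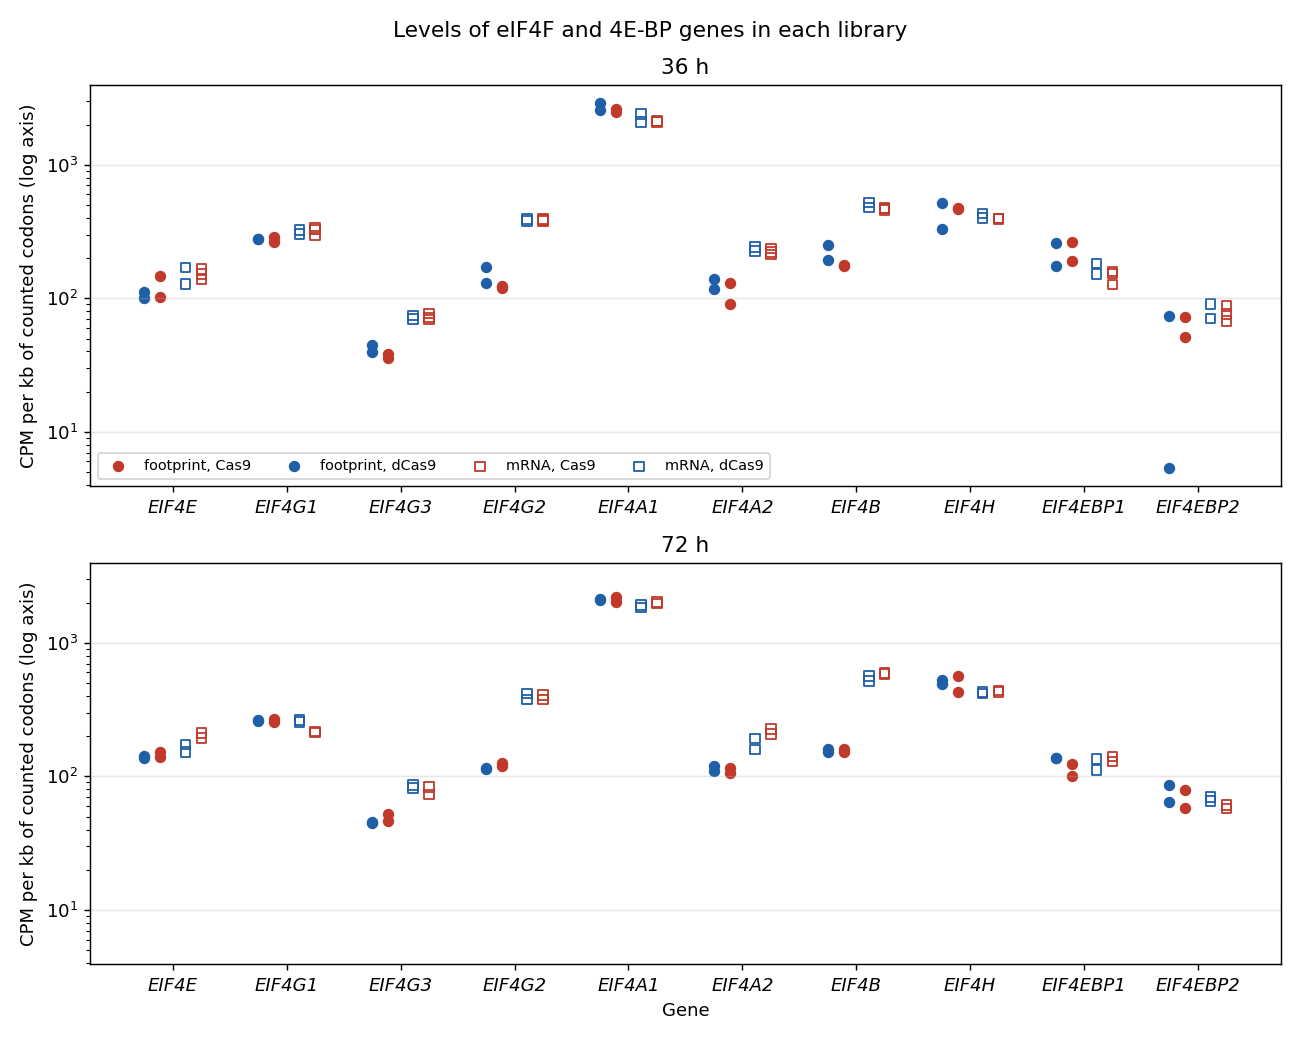
CPM per kb of counted codons (log axis) of the 10 genes in each library, with 36 h above and 72 h below. Filled circles are footprint libraries and open squares mRNA libraries, in red for Cas9 and blue for dCas9. EIF4A1 is highest throughout, and the footprint points of EIF4B, EIF4G2, EIF4G3 and EIF4A2 lie below their mRNA points at both times.

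Ratios between genes within a library do not depend on its depth. EIF4A1 exceeded its paralog EIF4A2 by 8.88 to 9.97 times in the 36 h mRNA libraries and 8.71 to 12.1 times at 72 h, and by 18.5 to 27.2 and 17.4 to 20.8 times in footprints. All 8 footprint libraries were above all 9 mRNA libraries. EIF4G1 made up 56.9% to 64.6% of the summed EIF4G1, EIF4G2 and EIF4G3 footprint level at 36 h and 60.0% to 62.6% at 72 h, but 39.7% to 41.8% and 30.6% to 36.7% of the corresponding mRNA. Relative to EIF4E, EIF4A1 footprints stood at 16.8 to 28.7 times at 36 h and 13.1 to 15.9 times at 72 h.

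The ratio of EIF4EBP1 to EIF4E sets the gene of the inhibitor against that of its target, in footprints or in mRNA. In footprints it was 1.80 and 1.87 in the Cas9 libraries and 1.57 and 2.55 in the dCas9 ones at 36 h, so the arms overlapped. In 36 h mRNA it was 0.834 to 1.19 over the 5 libraries. At 72 h the footprint ratio was 0.656 and 0.881 in Cas9 against 0.990 and 0.965 in dCas9, without overlap. In 72 h mRNA it was 0.661 and 0.669 in Cas9 and 0.887 and 0.644 in dCas9. The ratio of EIF4G1 to EIF4E in 72 h mRNA was 1.01 and 1.12 in Cas9 and 1.74 and 1.48 in dCas9, without overlap. In 72 h footprints it was 1.68 and 1.93 against 1.93 and 1.84, and the arms overlapped. The helicase relative to the scaffold was also apart in 72 h mRNA, with EIF4A1 to EIF4G1 at 9.26 and 9.32 in Cas9 and 7.27 and 7.19 in dCas9, while the footprint ratio was 7.81 and 8.21 against 7.84 and 8.15. The EIF4G1 to EIF4E and EIF4A1 to EIF4G1 differences share the EIF4G1 mRNA values, and none of these ratios carries a test of its own. How often the ratios of other gene pairs did not overlap was not computed. For single tested genes the share without overlap was 31.8% in 72 h footprints and 49.5% in 72 h mRNA.

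**Figure D2:**
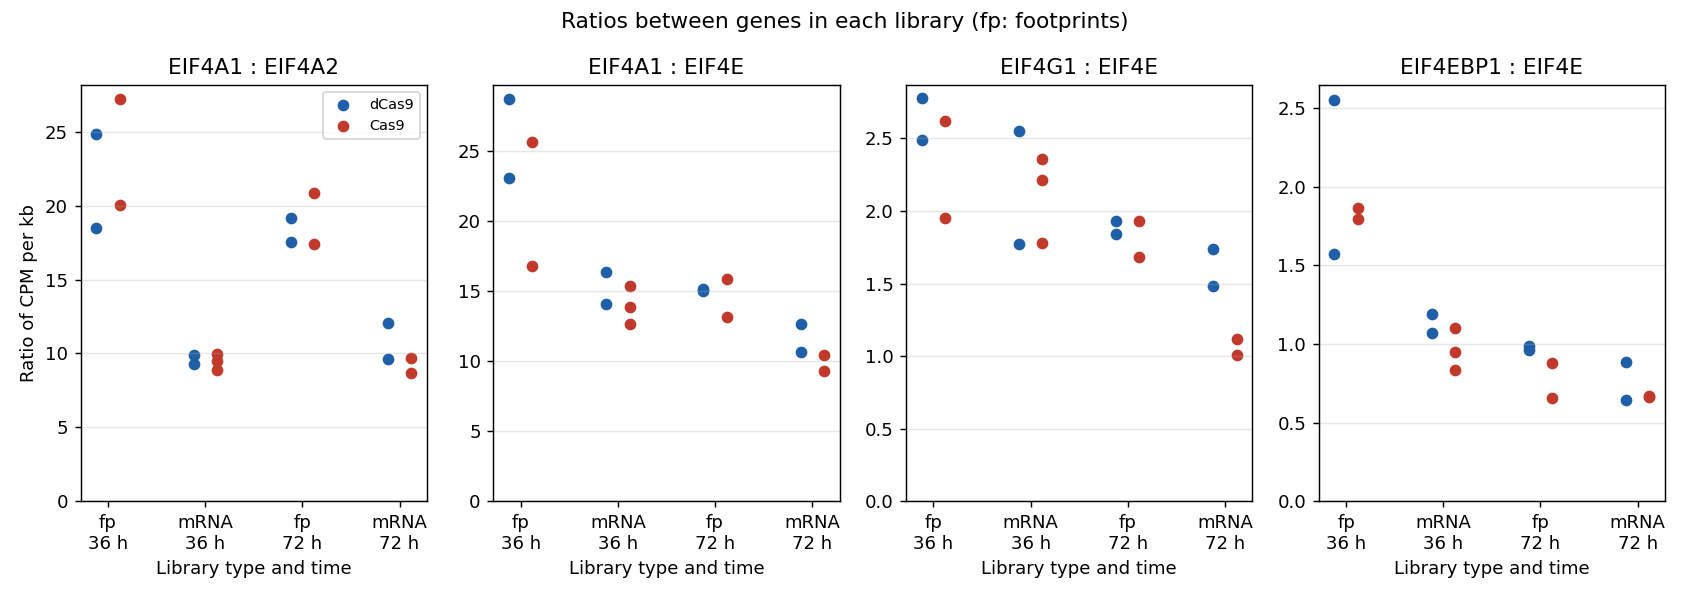
Ratios of CPM per kb between pairs of genes in each library, by library type and time (fp, footprints), in red for Cas9 and blue for dCas9, on axes that start at 0. EIF4A1 to EIF4A2 is 17.4 or more in every footprint library and 12.1 or less in every mRNA library, and EIF4G1 to EIF4E in 72 h mRNA is 1.01 and 1.12 in Cas9 and 1.48 and 1.74 in dCas9.

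How densely each mRNA was covered by ribosomes was read from the dCas9 cells as the log2 difference of footprints minus mRNA. TMM factors were computed over both library types of a time point together, so that 0 stood near the typical gene. Such differences were common, since 48.2% of the tested genes passed an adjusted p of 0.1 at 36 h (23.6% higher, 24.6% lower) and 70.6% at 72 h (32.7% higher, 37.8% lower). Of the 10 genes, 4 passed as lower and 1 as higher at 36 h, and 5 as lower and 2 as higher at 72 h, with medians of -0.51 and -0.10 beside -0.015 and -0.055 over all tested genes. Counted by ranges that did not overlap, they were 7 and 8 of 10, beside 67.9% and 81% of all tested genes.

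EIF4B and EIF4G2 were the lowest. EIF4B footprints were 346 and 446 CPM in dCas9 replicates d and e at 36 h, while mRNA was 846 and 923 CPM in the libraries with the same letters. That is a log2 difference of -1.19 ± 0.12 (SE, adjusted p = 3.5e-06), at percentile 9.19 of all tested genes. At 72 h EIF4B footprints were 284 and 270 CPM and mRNA 998 and 921 CPM, a difference of -1.79 ± 0.088 (adjusted p = 9.2e-11), at percentile 4.17. EIF4G2 gave -1.41 ± 0.14 at 36 h (adjusted p = 1.6e-06) and -1.79 ± 0.091 at 72 h (adjusted p = 1.4e-10). At 36 h its footprint count was taken on a transcript model with 424 counted codons and at 72 h on one with 888, and both gave the same direction.

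EIF4G3, a paralog of EIF4G1 that also binds eIF4E, and EIF4A2, the minor eIF4A paralog, were also lower in footprints than in mRNA. EIF4G3 differed by -0.76 ± 0.13 at 36 h (adjusted p = 0.00028) and -0.91 ± 0.099 at 72 h (adjusted p = 7.9e-07). EIF4A2 differed by -0.83 ± 0.16 (adjusted p = 0.00079) and -0.61 ± 0.11 (adjusted p = 0.00016). These 4 genes stayed past the threshold in the same direction in the 4 alternative settings tried at 36 h and the 8 at 72 h (7 for EIF4G2). The correction for GC content among these settings was made within each library type. It therefore did not adjust footprints against mRNA for base composition, here or for EIF4E below.

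The main helicase and its cofactor eIF4H stood on the other side. EIF4A1 differed by 0.28 ± 0.098 at 36 h (adjusted p = 0.032) and by 0.16 ± 0.077 at 72 h (adjusted p = 0.082), and the 36 h call was lost without dCas9 mRNA replicate d (adjusted p = 0.21) or dCas9 footprint replicate e (adjusted p = 0.14). The 72 h EIF4A1 call held in 7 of 8 settings that kept all libraries. It was lost with the mRNA letters crossed in a replicate block (adjusted p = 0.16). EIF4H differed by 0.28 ± 0.11 at 72 h (adjusted p = 0.038) and by 0.087 ± 0.16 at 36 h (adjusted p = 0.69). Without the shallow dCas9 footprint replicate e, EIF4H passed at 36 h as well, at 0.32 (adjusted p = 0.050), while without replicate d it was at -0.33. At 72 h both calls were lost without dCas9 footprint replicate e (adjusted p = 0.19 for EIF4A1 and 0.22 for EIF4H), and that of EIF4A1 also without dCas9 footprint replicate f (0.26) or dCas9 mRNA replicate b (0.17).

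Footprints of EIF4E, the gene of the cap-binding protein, were below its mRNA by a margin close to the threshold. EIF4E differed by -0.46 ± 0.22 at 36 h (adjusted p = 0.11) and passed as lower at 72 h, at -0.22 ± 0.11 (adjusted p = 0.099), a call lost under DESeq2 (adjusted p = 0.24) and kept in 1 of 8 fits without 1 library. Its 36 h value passed with the GC correction (-0.63, adjusted p = 0.031), without dCas9 mRNA replicate d (-0.66, adjusted p = 0.076) and without Cas9 footprint replicate a or c (adjusted p = 0.065 and 0.064), while without dCas9 mRNA replicate e it was -0.24 (adjusted p = 0.52). The main scaffold and the 4E-BPs did not pass at either time. EIF4G1 differed by -0.17 ± 0.10 and 0.015 ± 0.077 (adjusted p = 0.20 and 0.88). EIF4EBP1 differed by 0.28 ± 0.25 and 0.15 ± 0.15 (adjusted p = 0.40 and 0.38; 0.36 at 72 h without dCas9 mRNA replicate a, adjusted p = 0.039), and EIF4EBP2 by -0.55 ± 0.45 and 0.17 ± 0.18 (adjusted p = 0.35 and 0.44). EIF4EBP2 had 1 footprint count in dCas9 replicate e at 36 h and 104 in replicate d, so its 36 h value rests on almost no reads in 1 of its 2 libraries.

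**Figure D3:**
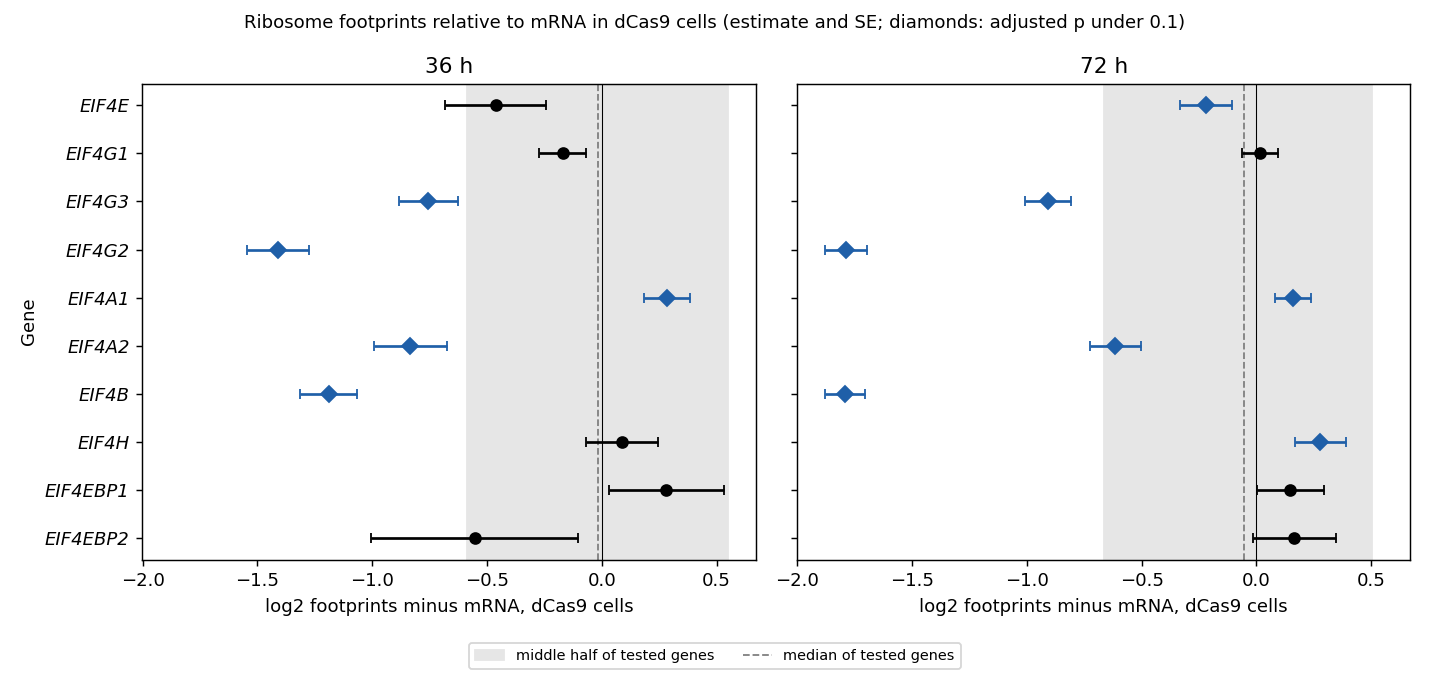
Log2 difference of footprints minus mRNA in dCas9 cells at 36 h (left) and 72 h (right), with SE as bars. Diamonds passed an adjusted p of 0.1, the grey band holds the middle 50% of tested genes and the dashed line is their median. EIF4B, EIF4G2 and EIF4G3 lie to the left of the band at both times, EIF4A2 does at 36 h, and EIF4G1 lies near 0.

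The comparison of Cas9 with dCas9 at 36 h asks whether cutting changed the message or the translation of these factors 36 h after nucleofection. By edgeR, no gene of the 10 passed an adjusted p of 0.1 in footprints, mRNA or translational efficiency (the footprint difference less the mRNA difference), in a background of 0% called in each of the 3. At an unadjusted p under 0.05 the 9016 tested genes gave 862 (9.56%), 26 (0.288%) and 568 (6.3%), and DESeq2 called 46, 0 and 1 of them, with no gene of the 10 among the calls. The edgeR fit gave each gene 1 dispersion for both library types. Replicates differed by a median absolute log2 of 0.41 and 0.46 in footprints and 0.13 to 0.17 in mRNA. With library types fitted apart, 188 genes in footprints and 422 in mRNA had an unadjusted p under 0.05. The 36 h mRNA SEs and p-values of the joint fit may thus be too large, and the footprint ones too small. The 10 genes had a median log2 difference of -0.056 in footprints, -0.066 in mRNA and -0.025 in translational efficiency, beside 0.015, -0.00027 and 0.010 over all tested genes.

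EIF4B had the largest footprint difference of the 10 at 36 h. Its footprint level was 307 and 316 CPM in the Cas9 libraries and 346 and 446 CPM in the dCas9 ones, which did not overlap. The log2 difference was -0.31 ± 0.13 (SE, adjusted p = 0.48), lower in 4 of 4 pairs of a Cas9 with a dCas9 library. Footprints per mRNA between libraries of the same letter were 0.367 and 0.375 in Cas9 and 0.409 and 0.483 in dCas9.

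EIF4G2 and EIF4G3 had the same pattern. EIF4G2 footprints were 156 and 153 CPM in Cas9 and 165 and 219 CPM in dCas9 (log2 difference -0.26 ± 0.15, adjusted p = 0.59), and EIF4G3 footprints 167 and 180 CPM against 210 and 187 CPM (-0.21 ± 0.14, adjusted p = 0.65). These 3 genes were the only ones of the 10 whose footprint ranges did not overlap, beside 30.4% of all tested genes. Without dCas9 replicate d, which leaves the shallow replicate e alone in its arm and assumes it varies like the other groups, EIF4B (-0.51, adjusted p = 0.051), EIF4G2 (-0.50, adjusted p = 0.089) and EIF4H (0.50, adjusted p = 0.089) passed, as did EIF4EBP2 against its 1 read, but 918 genes in all then did. Without the shallow replicate e instead, the footprint differences were -0.15 for EIF4B (adjusted p = 0.65), -0.093 for EIF4G2 (adjusted p = 0.82) and -0.26 for EIF4G3 (adjusted p = 0.46), so those of EIF4B and EIF4G2 lay nearer to 0 than with it.

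The arms of the remaining genes overlapped in footprints at 36 h. EIF4G1 footprints were 1377 and 1265 CPM in Cas9 and 1323 and 1333 CPM in dCas9, a log2 difference of -0.0091 ± 0.10 (adjusted p = 0.98), and its mRNA differed by 0.026 ± 0.091. EIF4A1 differed by -0.10 ± 0.099 in footprints (adjusted p = 0.77) and -0.088 ± 0.089 in mRNA, and EIF4A2 by -0.21 ± 0.17 (adjusted p = 0.73) and -0.062 ± 0.13. EIF4E differed by 0.15 ± 0.25 and 0.028 ± 0.18, an interval that leaves room for a change of either sign. EIF4H and EIF4EBP2 footprints differed by 0.089 ± 0.17 and 0.11 ± 0.53. Without dCas9 footprint replicate e the footprint differences were -0.0044 for EIF4G1, -0.019 for EIF4A1, -0.29 for EIF4A2, 0.093 for EIF4E, -0.14 for EIF4H, 0.32 for EIF4EBP1 and -0.32 for EIF4EBP2, none past the threshold, and those of EIF4H and EIF4EBP2 had turned sign. For the inhibitors, EIF4EBP1 footprints were 78.3 and 55.7 CPM in Cas9 and 51.6 and 75.7 CPM in dCas9, with arms that overlapped (log2 difference 0.12 ± 0.28). Its mRNA differed by -0.20 ± 0.20, the largest 36 h mRNA difference of the 10, also with arms that overlapped. Its translational efficiency differed by 0.32 ± 0.34 (adjusted p = 0.91). In mRNA the ranges of EIF4B and EIF4H did not overlap (2 of 10, beside 16.9%), with log2 differences of -0.091 ± 0.11 and -0.074 ± 0.14. In translational efficiency EIF4G2 alone had ranges that did not overlap (1 of 10, beside 15.3%), at -0.25 ± 0.18 (adjusted p = 0.87).

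At 72 h, where the same comparison asks what was seen at the later time, the mRNA of the main scaffold was lower in Cas9 cells. EIF4G1 (ENSG00000114867, chr3:184314495-184335358 in GRCh38, plus strand) mRNA was 1011 and 1024 CPM in Cas9 replicates a and b and 1255 and 1216 CPM in dCas9 replicates a and b. Both Cas9 libraries lay below both dCas9 libraries, the log2 difference was -0.28 ± 0.077 (SE, adjusted p = 0.056), and it was the only call among the 10 genes, beside 5.63% of all tested genes (0.422% higher and 5.2% lower). On simulated counts this fit made more false calls in 72 h mRNA than its threshold allows. The call was lost when the mRNA libraries were fitted alone (adjusted p = 0.25) and on leaving out Cas9 mRNA replicate a (adjusted p = 0.58), Cas9 mRNA replicate b (adjusted p = 0.15), dCas9 footprint replicate e (adjusted p = 0.14) or dCas9 footprint replicate f (adjusted p = 0.14), with values between -0.36 and -0.24 over all libraries left out. These are bulk cultures, in which fewer cells with the message and less message per cell cannot be told apart.

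The mRNA differences at 72 h went with base composition. Transcripts richer in GC tended to be lower in Cas9 cells, with Spearman's rho of -0.39 between GC content and log2 difference across 10896 genes, which all share the same 4 mRNA libraries. The EIF4G1 transcript is 56.7% GC, against 42.8% for that of EIF4E and 40.4% for that of EIF4A2. With a smooth GC correction EIF4G1 differed by -0.19 (adjusted p = 0.080), and the calls over all genes went from 46 higher and 567 lower to 383 higher and 1040 lower.

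EIF4E and EIF4A2 had the largest positive mRNA differences of the 10 at 72 h, and neither passed in the reported fit. EIF4E mRNA was 144 and 131 CPM in Cas9 and 103 and 117 CPM in dCas9, a log2 difference of 0.32 ± 0.11 (adjusted p = 0.14) that was higher in 4 of 4 pairs and at percentile 94.0 of tested genes. EIF4A2 mRNA was 265 and 242 CPM in Cas9 and 186 and 224 CPM in dCas9, a difference of 0.31 ± 0.11 (adjusted p = 0.15), also higher in 4 of 4 pairs. With the GC correction EIF4E passed at 0.25 (adjusted p = 0.067), while EIF4A2 differed by 0.19 (adjusted p = 0.12). Without dCas9 mRNA replicate b both passed, at 0.36 and 0.39 (adjusted p = 0.036 and 0.017), when 2472 genes did, and both passed in a replicate block with the mRNA letters crossed (adjusted p = 0.086 and 0.073), when 1133 did. By ranges, 7 of the 10 genes did not overlap between arms in 72 h mRNA, beside 49.5% of all tested genes.

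Footprints of the 10 genes at 72 h differed little. None passed in edgeR, as with 0% of the 10896 tested genes (396, or 3.63%, at an unadjusted p under 0.05, and 0 by DESeq2). EIF4G1 footprints, whose mRNA was lower, were 1219 and 1277 CPM in Cas9 and 1263 and 1234 CPM in dCas9, with overlapping arms and a log2 difference of 0.0003 ± 0.078. EIF4E, EIF4A1, EIF4A2 and EIF4B differed by 0.061 ± 0.12, 0.0037 ± 0.078, -0.056 ± 0.12 and -0.0011 ± 0.088. The ranges of 3 genes did not overlap, beside 31.8% of all tested genes: EIF4G3 at 0.13 ± 0.10, EIF4G2 at 0.089 ± 0.091 and EIF4EBP1 at -0.27 ± 0.16. EIF4EBP1 footprints were 29.8 and 36.5 CPM in Cas9 and 40.6 and 40.5 CPM in dCas9.

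Translational efficiency at 72 h combines these values. No gene of the 10 passed, beside 0.716% of tested genes (76 higher and 2 lower, and 221 in all by DESeq2), and 2 of the 10 had an unadjusted p under 0.05, as did 11.2% of tested genes. EIF4G1 was 0.28 ± 0.11 higher (adjusted p = 0.35), with footprints per mRNA of 1.19 to 1.26 over pairs of Cas9 libraries and 0.983 to 1.04 over pairs of dCas9 libraries. EIF4A2 differed by -0.36 ± 0.16 (adjusted p = 0.41), with 0.467 to 0.555 in Cas9 and 0.576 to 0.747 in dCas9. EIF4EBP1 had the largest difference, -0.40 ± 0.21 (adjusted p = 0.51), with 0.716 to 0.950 in Cas9 and 1.01 to 1.23 in dCas9. With EIF4G3 (0.24 ± 0.14) and EIF4E (-0.26 ± 0.16), these made 5 of 10 genes whose ranges did not overlap, beside 26.9% of all tested genes. Without dCas9 mRNA replicate b, EIF4G1 (adjusted p = 0.051) and EIF4A2 (adjusted p = 0.069) passed, but so did 1065 of all 10896 genes, against 78 with it.

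**Figure D4:**
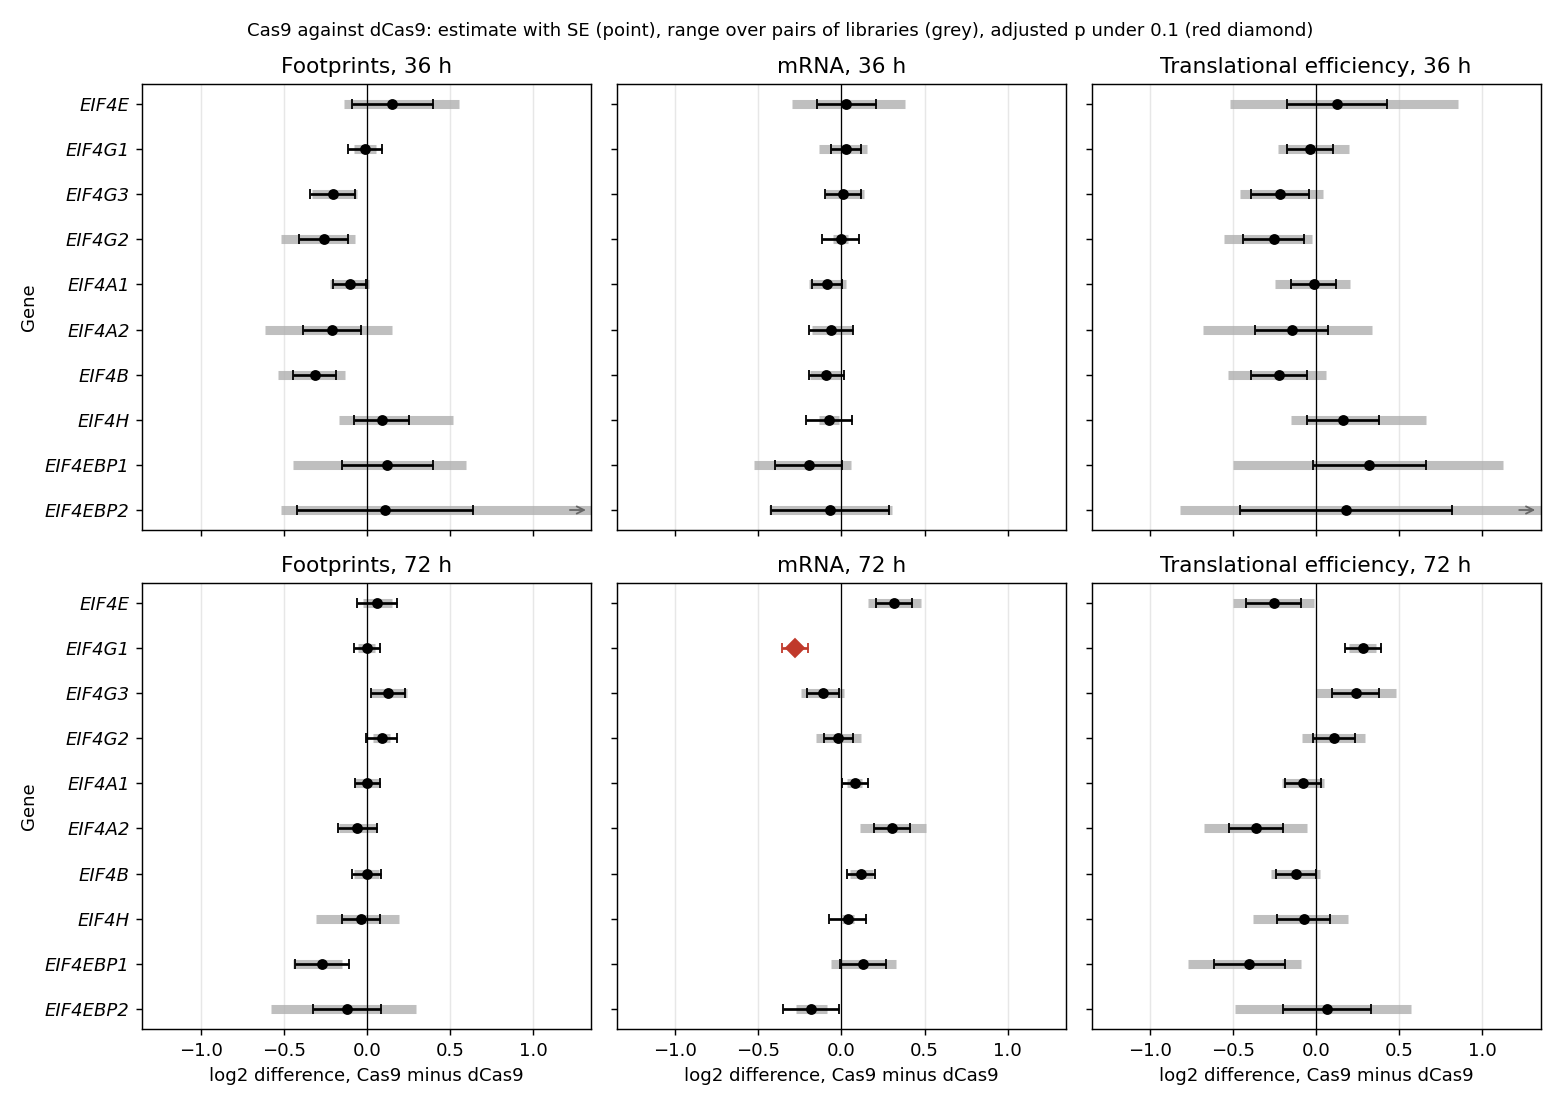
Log2 difference of Cas9 minus dCas9 for each gene in footprints, mRNA and translational efficiency (columns) at 36 h and 72 h (rows). Points are estimates with SE, grey bars span the pairs of libraries (arrows mark EIF4EBP2 bars that leave the axis) and the red diamond, EIF4G1 mRNA at 72 h at -0.28, is the only value with an adjusted p under 0.1.

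Of 33 further genes of cap-dependent initiation and its control, 32 had a count, 29 were tested at 36 h and 30 at 72 h. None passed between Cas9 and dCas9 in footprints or translational efficiency at either time, or in mRNA at 36 h. In 72 h mRNA 5 of 30 passed, all lower, beside 5.2% of all tested genes called lower, with a median of -0.12 over the 30 genes beside 0.017 over all tested genes. PABPC1, the cytoplasmic poly(A)-binding protein that contacts eIF4G, was 330 and 412 CPM in Cas9 and 517 and 595 CPM in dCas9 (log2 difference -0.58 ± 0.10, adjusted p = 0.0054). LARP1, which binds the cap of TOP mRNAs, was 279 and 330 CPM against 412 and 421 CPM (-0.45 ± 0.095, adjusted p = 0.013).

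The other calls were subunits or partners. MLST8, a subunit shared by the mTOR complexes, was 56.9 and 55.5 CPM in Cas9 and 79.5 and 80.6 CPM in dCas9 (-0.51 ± 0.11, adjusted p = 0.016). AKT1S1, which encodes the mTOR complex 1 inhibitor PRAS40, was 13.4 and 14.95 CPM against 23.1 and 20.1 CPM (-0.60 ± 0.15, adjusted p = 0.028). EIF4ENIF1, the eIF4E transporter 4E-T, was 26.7 and 36.7 CPM against 45.9 and 46.2 CPM (-0.54 ± 0.14, adjusted p = 0.051). Each was lower in 4 of 4 pairs of libraries. Without Cas9 mRNA replicate a only PABPC1 of these 5 still passed (adjusted p = 0.098), when 110 genes did in all, and with library types fitted apart LARP1 (adjusted p = 0.11) and EIF4ENIF1 (adjusted p = 0.15) did not. The EIF4ENIF1 call was also lost without dCas9 footprint replicate e or f, with a log2 difference of -0.54 in each fit. With the GC correction all 5 passed, within 9 of the 30 called lower and 1 higher, beside 9.54% of all tested genes called lower. NEFM, listed as a marker of the cells themselves, was also lower in 72 h mRNA, at -0.89 ± 0.22 (adjusted p = 0.033), and its part in these results was not tested.

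Across the 17 libraries, after centring each gene within library type and time, the closest patterns to EIF4E among 8969 genes were those of NUSAP1, OSTC and SUV39H2 (Pearson r = 0.92, 0.91 and 0.90). EIF4G1 was closest to SRCAP, ACLY and GTF3C1 (0.95, 0.94 and 0.94), and EIF4A1 to COMMD4, EEF1G and C12orf57 (0.90, 0.89 and 0.88). These values describe 17 points that share library depth and base composition within each group, and the names were the highest of all genes compared.

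The table for 72 h listed several transcripts for some of these genes, counted with overlap. For EIF4H, the shorter EIF4H-202, which lacks 20 of the codons of EIF4H-201, had more counts than the longer form in each of the 8 libraries. The shorter form exceeded the longer by 2.78% to 5.18% in footprints and by 5.83% to 8.08% in mRNA. For EIF4G3, EIF4G3-214 has 189 counted codons more than EIF4G3-201. The counts it had in excess, per codon, were 52.0% to 70.3% of the density over EIF4G3-201 in the 4 mRNA libraries and 108% to 122% in the 4 footprint libraries, so the ranges did not overlap. This excess is a net difference between overlapping counts. Whether EIF4G3-201 lies wholly within EIF4G3-214 was not checked, so it need not be the density over the added codons. In both genes the Cas9 and dCas9 ranges of the same library type overlapped. The 70.3% for EIF4G3 came from dCas9 mRNA replicate a alone, and the other mRNA libraries were at 52.0% to 56.6%.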

How the data were processed

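Footprints and mRNA were analysed in 17 libraries of HEK293 cells. Per the labels and the study's methods, the authors aligned reads to GRCh38 (HISAT2 2.1.0 in the labels, and another aligner in the methods for 72 h) and deposited raw read counts per transcript over coding sequence trimmed at its ends, beside the number of counted codons. The annotation used by the authors differed between time points. Transcripts were named with GENCODE release 44. Counts of a transcript that shares reads with paralogs or pseudogenes (EIF4A1 and EIF4A2, EIF4E, EIF4H) or with a readthrough gene (EIF4A1) are uncertain to that extent.

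Each time point was fitted apart with edgeR 4.0.16 in R 4.3.3 (quasi-likelihood, TMM, 1 mean per group, genes with a mean of at least 20 counts in both library types), with Benjamini-Hochberg adjustment over all tested genes and a threshold of 0.1. The SE was the log2 difference divided by the square root of F. CPM used TMM-scaled totals. Alternatives were DESeq2 1.42.0, its size factors, no count minimum, separate library types, a GC correction, replicate blocks, the 36 h transcripts at 72 h and each library left out. The GC correction compared libraries of the same type, so a GC-related difference between footprint and mRNA libraries was left in place. On simulated counts with known changes, the fit recovered most changed genes. In 36 h footprints, however, most of its calls were false, and in 72 h mRNA it made more false calls than its threshold allows. Adjusted p-values may thus be too small in both. In 36 h mRNA they may be too large, since each gene shared 1 dispersion with the more variable footprints. Replicate letters were checked for pairing. Same-letter correlations were 0.011 to 0.065 at 36 h, and 0.011 (footprints) and -0.14 (mRNA) at 72 h. With so few libraries per group these values cannot show that pairing was absent. The main fit assumed none, and a block on the lysate letter at 36 h called 0 genes in translational efficiency. No replicate pair agreed within counting noise. Replicate b of the 36 h Cas9 footprints and EIF4A3 were not analysed here. The 72 h Cas9 footprint titles write "rcas9", and their group came from the treatment label.

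The genes, the lists of further initiation genes and markers, and the tests were chosen with earlier results of these data known. The genes named were the 10 members, up to 5 further initiation genes per Cas9 comparison by adjusted p, and the 3 closest patterns to EIF4E, EIF4G1 and EIF4A1.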

Additional observations from a re-analysis of the deposited data

Results flagged for a closer look

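In footprints EIF4G2 and EIF4G3 were lower in Cas9 than in dCas9 cells in 4 of 4 pairs of libraries at 36 h and higher in 4 of 4 pairs at 72 h. In 1 fit over the 17 libraries, added after these values were seen, the 72 h effect less the 36 h effect was 0.33 ± 0.17 on the log2 scale for EIF4G2 (SE, adjusted p = 0.62) and 0.33 ± 0.17 for EIF4G3 (adjusted p = 0.62). Neither difference passed, beside 0.0223% of 8970 genes, and both genes were counted on different transcripts at the 2 times, as were EIF4H and EIF4G1 below.

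In mRNA EIF4B and EIF4H were lower in Cas9 in 6 of 6 pairs at 36 h and higher in 4 of 4 pairs at 72 h. The effects differed by 0.22 ± 0.13 for EIF4B (adjusted p = 0.85) and 0.12 ± 0.19 for EIF4H (adjusted p = 0.96), beside 0.524% of 8970 genes that passed. For EIF4G1 mRNA, the one call of the report, the effect at 72 h less that at 36 h was -0.30 ± 0.11 (adjusted p = 0.51), so that a difference between the time points was not shown. Time points also differed in guide preparation, annotation and processing, which cannot be told apart from time.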

How the results depend on the processing

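EIF4G1 mRNA at 72 h was lower in every setting and passed in 8 of 9 settings that kept all libraries (adjusted p 0.028 to 0.25) and in 4 of 8 with 1 library left out. The replicate block changed no call between arms among the 10 genes (EIF4G1 mRNA at 72 h -0.28, adjusted p = 0.046) and gave 535 genes in 72 h mRNA against 613, but ended the EIF4E call in dCas9 cells at 72 h (adjusted p = 0.14). With the mRNA letters crossed in the block, added after the data were seen, the 72 h counts were 1 in footprints, 1133 in mRNA and 249 in translational efficiency. EIF4E and EIF4A2 mRNA then passed (adjusted p = 0.086 and 0.073). The crossed block also ended the 72 h calls of EIF4A1 (adjusted p = 0.16) and EIF4E (adjusted p = 0.11) in dCas9 cells. With the block and the GC correction EIF4E mRNA passed as well (adjusted p = 0.083). Footprint counts at 36 h went down to 1 read for EIF4EBP2. The causes of the changes below were not tested.

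Over all genes at 36 h, footprint calls were 46 under DESeq2, 21 with no count minimum and 1 with the GC correction, mRNA calls 2 with no count minimum and 2 with library types apart, and 1 in translational efficiency under DESeq2. At 72 h, footprint calls were 1 with DESeq2 size factors, 2 with no count minimum and 4 with library types apart. The 72 h mRNA calls were 293 with library types apart, 1423 with the GC correction and 1353 with it and the replicate block. Translational efficiency gave 221 under DESeq2, 170 with its size factors, 260 with no count minimum, 307 with the GC correction and 356 with it and the replicate block. With 1 library left out, calls ranged from 0 to 918 in 36 h footprints (the most without dCas9 replicate d), 0 to 474 in 36 h translational efficiency, 0 to 1 in 72 h footprints, 110 to 2472 in 72 h mRNA (the fewest without Cas9 mRNA replicate a, the most without dCas9 mRNA replicate b) and 1 to 1065 in 72 h translational efficiency.

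Of 579 values of single genes in settings that kept all libraries, 550 kept their direction and side of the threshold and 15 turned sign, all near 0 before and after. These were EIF4E (-0.048) and EIF4G3 (-0.0083) in 36 h mRNA with the GC correction, and footprints at 72 h of EIF4B under DESeq2 (0.00052), its size factors (3.0e-05), library types apart (0.00040), the GC correction (0.0019) and that with the replicate block (0.0012). EIF4G1 footprints turned with no count minimum (-0.0083), the GC correction (-0.0076), that with the replicate block (-0.0071), the crossed block (-1.9e-05) and the 36 h transcripts (-0.00028), and EIF4A1 footprints with no count minimum (-0.0047), the GC correction (-0.0012) and that with the replicate block (-0.0027). Of 86 log2 differences of single genes, 35 turned sign on leaving out 1 library. In footprints at 36 h the ranges were EIF4E -0.098 to 0.45, EIF4EBP1 -0.23 to 0.41, EIF4EBP2 -0.32 to 3.45, EIF4G1 -0.070 to 0.053 and EIF4H -0.14 to 0.50. In footprints at 72 h the ranges were EIF4A1 -0.067 to 0.071, EIF4A2 -0.11 to 0.0066, EIF4B -0.040 to 0.037, EIF4E -0.0027 to 0.13, EIF4EBP2 -0.39 to 0.12, EIF4G1 -0.034 to 0.033 and EIF4H -0.25 to 0.14. In footprints less mRNA in dCas9 cells at 36 h the range was EIF4H -0.33 to 0.32. In footprints less mRNA in dCas9 cells at 72 h the ranges were EIF4EBP2 -0.075 to 0.36 and EIF4G1 -0.0083 to 0.11. In mRNA at 36 h the ranges were EIF4A1 -0.18 to 0.011, EIF4E -0.16 to 0.25, EIF4EBP2 -0.24 to 0.12, EIF4G1 -0.032 to 0.083, EIF4G2 -0.027 to 0.017 and EIF4G3 -0.038 to 0.050. In mRNA at 72 h the ranges were EIF4A1 -0.0059 to 0.13, EIF4EBP1 -0.059 to 0.29, EIF4G2 -0.11 to 0.027 and EIF4H -0.036 to 0.069. In translational efficiency at 36 h the ranges were EIF4A1 -0.12 to 0.080, EIF4A2 -0.47 to 0.040, EIF4E -0.13 to 0.42, EIF4EBP1 -0.034 to 0.61, EIF4EBP2 -0.25 to 3.52, EIF4G1 -0.096 to 0.027 and EIF4H -0.069 to 0.58. In translational efficiency at 72 h the ranges were EIF4A1 -0.15 to 0.0082, EIF4EBP2 -0.20 to 0.31 and EIF4H -0.29 to 0.10.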
